A study of Canis lupus familiaris with 29 samples.

Results

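Among the T-cell lymphomas of this series, 2 sets of libraries stand apart by their whole expression profile. Set A holds 4 libraries and set B holds 3, so that the 7 make up most of the 9 T-cell lymphomas and a small part of the 29 libraries in all. The sets were chosen by the Pearson correlation r between libraries over log2(FPKM + 1), where FPKM, a count of fragments per length of transcript and per mapped total, corrects the read total of a gene for its length and for the size of the library. Pairs within set A reached an r of 0.93 or more and pairs within set B 0.92 or more. Because every gene entered that choice, set A against set B is described here and not tested. The remaining 2 T-cell libraries join neither set and serve, with 20 B-cell lymphomas, as outside reference.

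All libraries are tumour RNA from golden retrievers with lymphoma. The labels give no treatment. Libraries are numbered in accession order within their phenotype, so that T1 is the first T-cell library. Set A holds T1 (intact female, 9.8 years at diagnosis), T2 (neutered female, 8.7 years), T3 (neutered female, 9.9 years) and T7 (neutered male, 11.9 years). Set B holds T4 (neutered female, 10.3 years), T8 (neutered female, 8.5 years) and T9 (intact male, 6.3 years). T5 (neutered male, 4.5 years) and T6 (intact female, 9.4 years) are in neither set. The labels give neither the method of phenotyping nor a histological type nor a tumour share. They also do not state that libraries are from separate animals, and p-values then measure the spread between these libraries alone.

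As background, T-cell lymphoma in dogs is a group of diseases and not a single one. It includes indolent T-zone lymphoma, which is well known in golden retrievers, and aggressive peripheral T-cell lymphomas. A tumour biopsy of a lymph node also carries non-neoplastic B cells, T cells, macrophages and stroma. The table names genes by Ensembl ID alone, and the RefSeq table at hand paired 0 of these 16382 IDs with a symbol. Marker genes of these diseases and cell types could therefore not be read, neither set is given a disease name, and the labelled phenotype could not be checked against T-cell or B-cell markers. In bulk tumour RNA, fewer cells of a type and less RNA per cell cannot be told apart.

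By median r the libraries of set A were more alike than those of set B, though T1 with T2 lay within the range of set B. The sets were chosen by such values, with a higher r asked of set A, so this order describes the choice. Over 11170 genes (1 FPKM or more in 3 or more of the 7), pairs within set A ran from r = 0.924 (T1 with T2) to 0.966 (T2 with T3), with a median of 0.961 over 6 pairs. Pairs within set B ran from 0.923 to 0.925 over 3 pairs. Pairs across the sets ran from 0.835 (T2 with T8) to 0.909 (T7 with T4), with a median of 0.868 over 12 pairs. On these genes the T1 and T2 pair falls just under the 0.93 of the choice. With genes at 1 FPKM or more in at least 3 of the 29 libraries the lowest pair in set A stood at 0.935 and the lowest in set B at 0.931, while T4 with T7, the closest pair across the sets, stood at 0.922. That pair also meets the 0.92 asked of set B, so this value alone does not place T4.

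**Figure D1:**
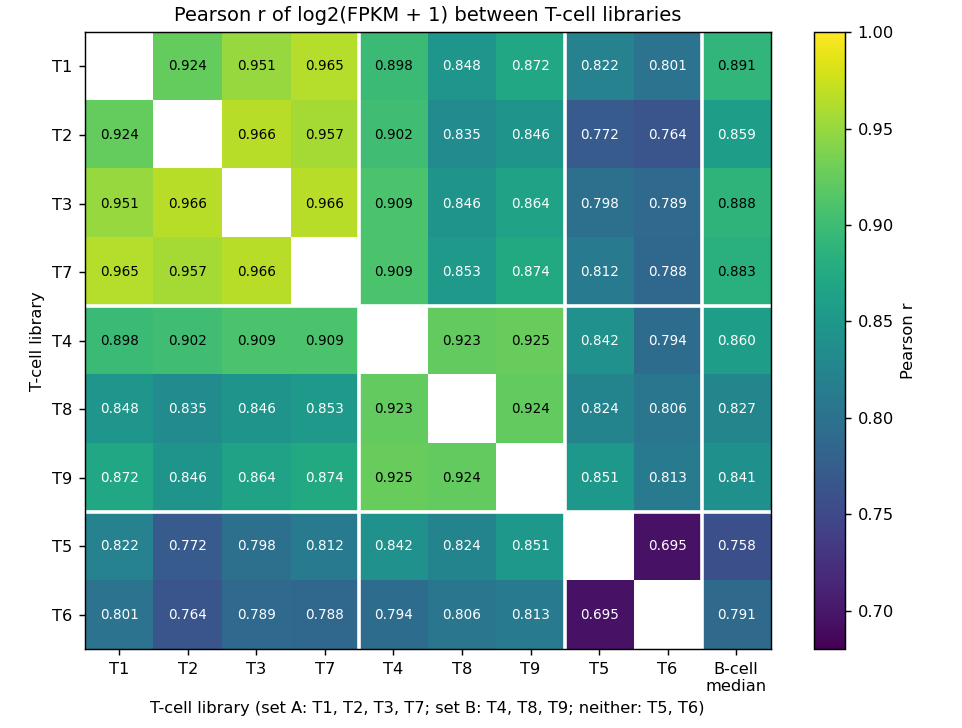
Pearson r of log2(FPKM + 1) between the 9 T-cell libraries over 11170 genes, with white lines between set A, set B and the left-out libraries, and in the last column the median r of each library with the 20 B-cell libraries. The block of set A runs from 0.924 to 0.966, and the row of T4 holds 0.898 to 0.909 with set A, against 0.835 to 0.853 for T8 and 0.846 to 0.874 for T9.

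By median r, set A lay closer to the B-cell lymphomas than set B did. Each library of set A also correlated better with some B-cell tumours than with any library of set B. The median r with the 20 B-cell libraries was 0.891, 0.859, 0.888 and 0.883 for T1, T2, T3 and T7. For T4, T8 and T9 it was 0.860, 0.827 and 0.841. The sets overlap in this measure, as T4 lies just above T2. For each of the 4 libraries of set A, 3 to 7 B-cell libraries correlated better than its best match in set B, which was T4 every time. For each library of set B, 0 B-cell libraries did so. The r across the sets was among the values by which the sets were chosen. The B-cell libraries also outnumber those of set B, which favours a close B-cell match, so these counts are a description only. The closest B-cell match of T2, T3 and T7 was B-cell library 13, at 0.930, 0.935 and 0.938, and that of T1 was B-cell library 4, at 0.929. Without B-cell library 13 the medians moved little, and B-cell library 4 still exceeded T4 for all 4. Over all pairs, the median r of set A with the B-cell libraries was 0.884 and with set B 0.868, but without T8 the order turned, at 0.881 and 0.888.

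Most genes differed little between the sets, with 63.3% within 0.5 log2 units, and the median difference of set A minus set B was 0.05 log2 units over all genes compared. At least 2-fold differences were found for 829 genes higher in set A (7.42% of the genes compared) and 673 higher in set B (6.03%). At least 4-fold differences were found for 161 genes higher in set A (1.44%) and 131 higher in set B (1.17%). Past 8-fold, 40 were higher in set A (0.358%) and 30 higher in set B (0.269%). The values of the sets did not overlap for 3519 genes (31.5%), with set A above set B for 1829 (16.4%) and below it for 1690 (15.1%). With quantile normalization the larger direction turned, at 1622 above and 1760 below. Since the rule used this contrast, these counts describe the sets and support nothing.

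**Figure D2:**
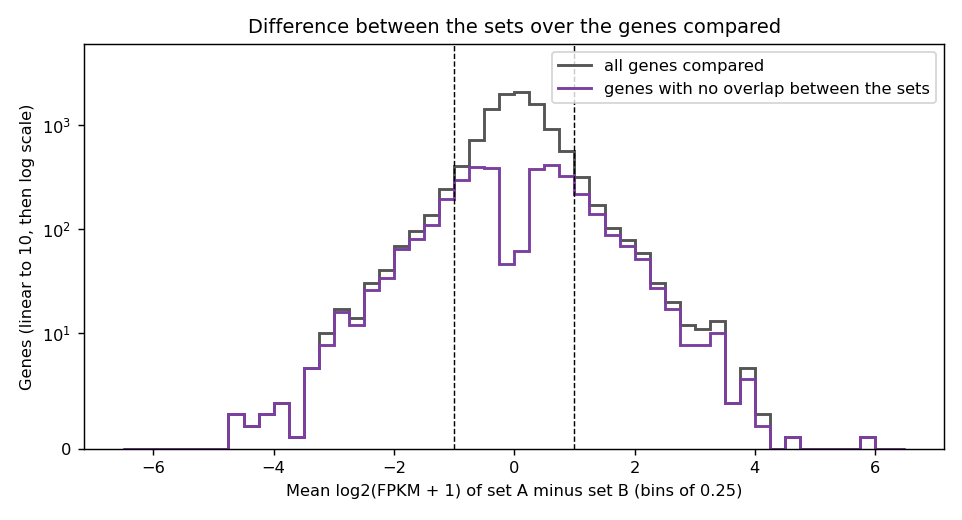
Histogram of the difference in mean log2(FPKM + 1), set A minus set B, in bins of 0.25 over 11170 genes, with dashed lines at 2-fold and a gene axis that is linear to 10 and logarithmic above. The grey line counts all genes and the purple line the 3519 whose values do not overlap between the sets, which make up most of both tails.

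Both criteria together, at least 2-fold and no overlap, were met by 649 genes higher in set A (5.81%) and 568 higher in set B (5.09%). These 2 groups of genes are described in turn. They were of like abundance on their high side, at a median of 21.9 FPKM in set A for the first group and 19.8 FPKM in set B for the second. On the low side the medians were 6.30 FPKM in set B and 5.16 FPKM in set A. Of the first group 67 genes, and of the second 67 as well, reached 1 FPKM in libraries of their high set alone. Such a gene passed the filter only through the set in which it was high and had to differ.

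The genes higher in set A included a few very abundant ones, whereas those higher in set B were spread more evenly. The group of 649 genes took 13.8%, 14.2%, 14.0% and 13.6% of all FPKM in T1, T2, T3 and T7. It took 7.34%, 4.48% and 6.52% in T4, T8 and T9. The B-cell libraries gave it 8.80% to 15.5%, with a median of 12.7%, so a high share was not particular to set A. In set A, 13 of these 649 genes carried 50% of the group's FPKM and the 10 most abundant 44.9%. The group of 568 genes took 4.42%, 6.48% and 5.74% of all FPKM in T4, T8 and T9. In T1, T2, T3 and T7 its shares were 1.57%, 1.38%, 1.53% and 1.57%, and in the B-cell libraries 1.35% to 2.83%. In set B, 60 of these 568 genes were needed for 50% and the 10 most abundant carried 17.9%. Over all genes of a library, the 10 most abundant took 8.86% to 9.64% of FPKM in set A and 4.67% to 6.66% in set B, without overlap. The summed FPKM also did not overlap, at 474343 to 530668 in set A and 398760 to 441604 in set B. The B-cell libraries overlapped both sets in both measures, at 5.85% to 10.6% for the 10 most abundant genes and 408273 to 677096 summed FPKM. With quantile normalization, which gives every library the same distribution of values, 767 genes were at least 2-fold higher in set A and 741 in set B.

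The 2 gene IDs with the largest difference in each direction are given one by one, among genes that did not overlap and averaged at least 1 FPKM over the 7 libraries. ENSCAFG00000011877 stood at 64.0, 381.8, 282.4 and 33.1 FPKM in T1, T2, T3 and T7. In T4, T8 and T9 it stood at 6.0, 0.362 and 0 FPKM. Its level varied widely within both sets, and T4 held the highest value of set B. The means were 190.3 ± 169.2 FPKM (SD, n = 4) and 2.12 ± 3.37 FPKM (SD, n = 3), a difference of 5.88 on the log2(FPKM + 1) scale. The B-cell libraries ran from 0 to 24.7 FPKM with a median of 1.57, so 0 of 20 reached the lowest library of set A. T5 and T6, at 1.80 and 0.386 FPKM, lay with set B.

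ENSCAFG00000007663 separated set A from every other library of the series. It stood at 28.2, 30.1, 66.2 and 13.9 FPKM in T1, T2, T3 and T7 and at 0.465, 0.188 and 0.202 FPKM in T4, T8 and T9. The means were 34.6 ± 22.3 FPKM (SD, n = 4) and 0.285 ± 0.156 FPKM (SD, n = 3), a difference of 4.59 log2 units. The B-cell libraries ran from 0.0632 to 1.53 FPKM, with a median of 0.579. T5 and T6 lay between, at 2.07 and 3.39 FPKM, above all B-cell libraries and below all of set A.

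Towards set B, ENSCAFG00000011311 stood at 30.1, 31.0 and 19.6 FPKM in T4, T8 and T9. In T1, T2, T3 and T7 it stood at 0.155, 0.128, 0 and 0.106 FPKM. The means were 26.9 ± 6.30 FPKM (SD, n = 3) and 0.0973 ± 0.0680 FPKM (SD, n = 4), a difference of -4.64 log2 units for set A minus set B. Set A lay low beside most B-cell tumours as well: 16 of 20 reached 1 FPKM, with a range of 0.143 to 52.7 and a median of 6.13 FPKM. T5 stood at 11.5 FPKM, and T6 was listed at 0.

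ENSCAFG00000006465 stood at 23.6, 32.5 and 20.6 FPKM in T4, T8 and T9. In T1, T2, T3 and T7 it stood at 0.0394, 0.0323, 0.0738 and 0.0794 FPKM. The means were 25.6 ± 6.20 FPKM (SD, n = 3) and 0.0562 ± 0.0238 FPKM (SD, n = 4), a difference of -4.63 log2 units. Both left-out T-cell libraries expressed it, at 8.48 FPKM in T5 and 21.7 FPKM in T6. The B-cell tumours were divided, from 0 to 46.8 FPKM with a median of 0.260, and 8 of 20 reached 1 FPKM. Set A held 4 of the 9 T-cell libraries and all of those under 1 FPKM for this ID.

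**Figure D3:**
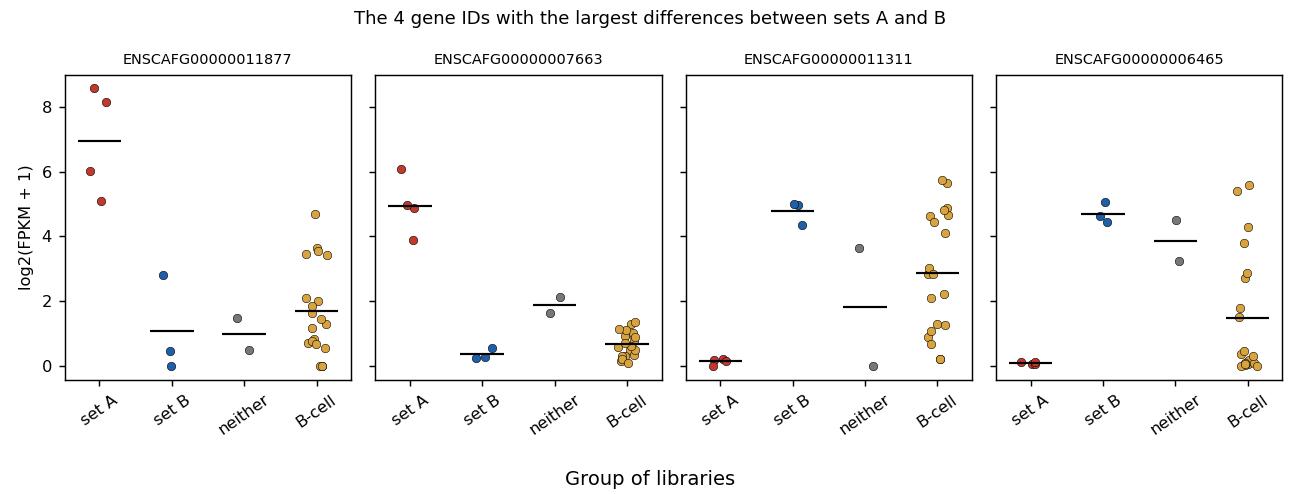
log2(FPKM + 1) of the 4 gene IDs in set A (n = 4), set B (n = 3), the 2 T-cell libraries in neither set and the 20 B-cell libraries. Points are libraries and bars are means, and the B-cell libraries lie low for ENSCAFG00000007663, at 1.53 FPKM or less, but spread from near 0 to 46.8 FPKM for ENSCAFG00000006465.

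The B-cell lymphomas gave an outside level for each gene. On the line from the mean of set B (position 0) to that of set A (position 1), the mean of the 20 B-cell libraries was nearer to set A for 342 of the 649 genes higher in set A, which is 52.7%. For the 568 genes higher in set B it was nearer to set A for 371, which is 65.3%. Over all 11170 genes compared the share was 51.7%. Without the genes that reached 1 FPKM in libraries of a single set, the shares lay closer together, at 55.0% of 582 genes higher in set A and 62.7% of 501 higher in set B, beside 51.7% of 10932 genes compared in this way. Relative to the B-cell mean, the median difference of these 568 genes was -0.32 log2 units in set A and 1.13 in set B. For the 649 genes higher in set A the medians were 0.64 in set A and -0.81 in set B. Over all genes compared they were 0.12 and 0.10.

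The B-cell mean was also placed gene by gene in the 2 groups. The same placement was not counted over all genes compared, so these counts describe the chosen genes alone. Of the 649 genes higher in set A, the B-cell mean lay within 0.25 of the position of set A for 147 and beyond set A for 114. It lay within 0.25 of set B for 159, beyond set B for 61 and between the sets for 168. Of the 568 genes higher in set B, it lay at the level of set A for 173 and beyond set A for 117. It lay at the level of set B for 82, beyond set B for 11 and between the sets for 185.

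**Figure D4:**
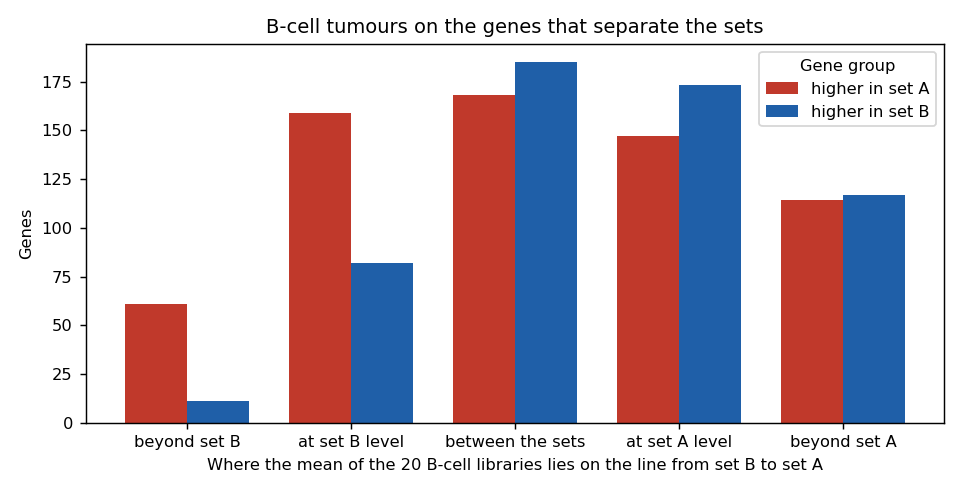
Number of genes by where the mean of the 20 B-cell libraries lies on the line from set B to set A, for the 649 genes higher in set A (red) and the 568 higher in set B (blue). The blue bars are lowest on the side of set B, at 11 beyond it and 82 at its level.

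Single B-cell tumours also differed along this line. For the genes higher in set A, the share at which a B-cell library was nearer to set A ran from 41.3% to 67.8%, the highest being B-cell library 13. For the genes higher in set B it ran from 52.8% to 92.4%, with B-cell libraries 4 and 13 highest at 92.4% and 91.7%. Over all genes compared it ran from 45.8% to 65.9%, with B-cell library 13 again highest, so the range of the genes higher in set A was close to that of all genes. Both groups of genes varied among B-cell tumours more than the general run of genes. Their median SD over the 20 B-cell libraries was 0.56 log2 units for the genes higher in set A and 0.52 for those higher in set B, beside 0.39 over all genes compared. This measure used no T-cell library, but SD on this scale also depends on expression level, and that part was not tested.

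Genes on which 1 set stood apart from both the other set and every B-cell library were more often those of set B. Every library of set B lay above all libraries of set A and all B-cell libraries for 496 genes (4.44%) and below all of them for 360 (3.22%). Every library of set A lay above all of set B and all B-cell libraries for 272 genes (2.44%) and below all for 114 (1.02%). A group of 3 separates from the rest more easily than a group of 4. For 228 genes (2.04%) all 7 libraries lay above every B-cell library, and for 131 (1.17%) all 7 lay below.

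Each set was also tested against the B-cell lymphomas, a comparison that the choice of the sets did not use. With limma on log2(FPKM + 1) over 11885 genes (1 FPKM or more in 3 or more of the 29), 3337 genes differed between set A and the B-cell tumours (28.1%) at a Benjamini-Hochberg adjusted p under 0.05. Of these, 2024 were higher in set A (17%) and 1313 lower (11%). For set B, 3299 genes differed (27.8%), with 1918 higher (16.1%) and 1381 lower (11.6%). These counts fell when any 1 library of the set was left out, which also makes the set smaller. Genes lower in set A numbered 836 without T2, 896 without T7, 923 without T3 and 1016 without T1. In set B, 1265 were higher and 869 lower without T8, 1336 and 958 without T9, and 1511 and 1074 without T4. Counting only called genes that differed at least 2-fold, set A had 939 higher (7.90%) and 379 lower (3.19%), and set B had 990 higher (8.33%) and 639 lower (5.38%). The split by direction depended on the scaling. With median-of-ratios scaling 1669 genes were higher and 1641 lower in set A, and 1585 higher and 1591 lower in set B. With quantile normalization 1529 genes were higher and 1959 lower in set A, and 1633 higher and 1793 lower in set B. The median difference over all genes moved from 0.10 as deposited to -0.05 with quantile normalization for set A, and from 0.09 to -0.03 for set B. The sets were chosen for likeness within each, which can narrow their spread, and most of the pooled spread came from the B-cell libraries. Both comparisons share those 20 libraries, and the difference between them is the contrast that was used to choose the sets.

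Within set B, T4 lay nearest to set A. To place a library without using its own values for the choice of genes, the genes at least 2-fold different and not overlapping were chosen anew from the other 6 libraries. T4 then stood at a median position of 0.47 on 1016 genes higher in set A, close to midway between the sets, and at 0.32 on 654 genes higher in set B. It was nearer to set B for 54.4% and 67.0% of these genes. T8 stood at -0.10 on 608 genes and 0.02 on 508, and T9 at 0.09 on 729 and 0.09 on 556. The libraries of set A ran from 0.88 (T1) to 0.98 (T3) on genes higher in set A and from 0.89 (T1) to 1.01 (T2) on genes higher in set B. The grouping of the libraries itself was known from all 7.

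The number of genes that separate the sets rested in part on single libraries, T4 among them. Without T4, genes at least 2-fold higher in set A numbered 1146 against 829 with it, and those at least 2-fold higher in set B 730 against 673. Without T8 the 2 counts fell to 715 and 558, and without T1 they were 928 and 655. Among the 649 genes higher in set A, T4 was the highest library of set B for 442 (68.1%), T9 for 129 (19.9%) and T8 for 78. Among the 568 genes higher in set B, T4 was the lowest of set B for 309 (54.4%), T9 for 154 (27.1%) and T8 for 105 (18.5%). In set A the library nearest to set B was divided more evenly. For genes higher in set A it was T2 for 208 (32.0%) and T1 for 181 (27.9%), and for genes higher in set B it was T1 for 224 (39.4%).

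The median SD within each set, which the choice by likeness can narrow, was lower than that of the B-cell tumours. The median SD of a small group also tends to come out low, and no correction for group size was made. A smaller spread of either set is therefore not read from these values. The median SD over the genes compared was 0.23 log2 units in set A (n = 4), 0.32 in set B (n = 3) and 0.39 in B-cell tumours (n = 20). Set B also varied more than any 3 libraries of set A, but a higher r was asked of set A, so this order describes the choice. A 2-fold range or more was found in set B for 2522 genes (22.6%), and for 1030 to 1856 genes (9.22% to 16.6%) in the 4 possible threes of set A. Of the 441 genes with a range of 4-fold or more in set B, the library farthest from the median was T4 for 137, T8 for 149 and T9 for 155. Of the 334 such genes in set A it was T1 for 125, T2 for 103, T3 for 59 and T7 for 47.

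Of the 2 T-cell lymphomas outside both sets, T5 lay nearer to set B, while the ranges of T6 with the sets overlapped. T5 correlated at 0.824 to 0.851 with set B and at 0.772 to 0.822 with set A. T6 correlated at 0.794 to 0.813 with set B and at 0.764 to 0.801 with set A. Their r with each other, 0.695, was lower than any of these. T5 had the lowest relative depth of the 29 libraries, at 0.523 of B-cell library 1, and the part of depth in its values was not tested.

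Gene by gene, T5 and T6 took different positions. On the 649 genes higher in set A, T5 was nearer to set A for 35.6% and T6 for 38.4%. On the 568 genes higher in set B, T5 was nearer to set A for 30.3% and T6 for 47.2%. Over all genes compared the shares were 46.4% for T5 and 45.6% for T6, so the value of T6 on the 568 genes was near its general level. Among the genes higher in set B, T5 and T6 differed most where B-cell tumours were low. For the 173 genes higher in set B on which B-cell tumours were at the level of set A, T6 was nearer to set A for 101 and T5 for 46. For the 117 on which B-cell tumours lay beyond set A, T6 was nearer to set A for 78 and T5 for 32. For the 82 on which B-cell tumours were at the level of set B, T6 was nearer to set A for 21 and T5 for 29. Among the genes higher in set A this did not hold: for the 159 on which B-cell tumours were at the low level of set B, T5 was nearer to set A for 56 and T6 for 54. For the 114 on which B-cell tumours lay beyond set A, T5 was nearer to set A for 53 and T6 for 39. Of the 496 genes with set B above set A and all B-cell libraries, T5 was at or above the lowest library of set B for 303 and T6 for 151. No share over all genes was taken for these placements or for the 496 genes. The counts therefore describe the chosen genes alone.

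**Figure D5:**
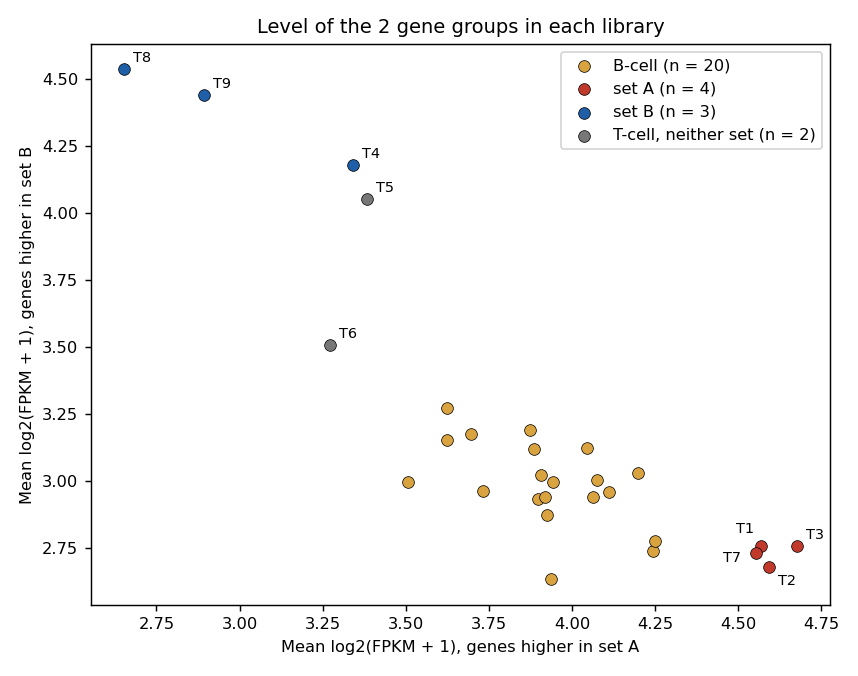
Mean log2(FPKM + 1) of the 649 genes higher in set A (horizontal axis) and of the 568 genes higher in set B (vertical axis) in each of the 29 libraries. Set A and set B are apart by choice of the genes, T5 lies near T4, and the 20 B-cell libraries lie between 3.51 and 4.25 on the horizontal and between 2.63 and 3.27 on the vertical axis.

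Some genes passed 1 FPKM in every library of one set and in no library of the other. There were 70 such genes on in set A (0.627%) and 81 on in set B (0.725%). Most were of low abundance, with a median of 2.63 FPKM in set A for the first and 3.5 FPKM in set B for the second, and 4 of the 70 and 14 of the 81 reached a mean of 10 FPKM. Of the 70 genes on in set A, 7 reached 1 FPKM in no B-cell library and 6 in all 20. Of the 81 genes on in set B, 23 did so in no B-cell library and 2 in all 20. T5 expressed 68 of the 81 genes on in set B and 36 of the 70 on in set A. T6 expressed 31 and 19. All these genes passed the filter only through the set in which they were on. The share of all genes compared that reached 1 FPKM in T5, T6 or the B-cell libraries was not taken. No likeness to either set is therefore read from these counts.

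The labels and the depth of the libraries did not separate the sets at this size. Age at diagnosis averaged 10.1 ± 1.33 years in set A (SD, n = 4) and 8.37 ± 2.00 years in set B (SD, n = 3), and the ages of the sets overlapped (2-sided exact permutation test, p = 0.343). Relative depth, read from the smallest steps of low FPKM values, averaged 1.23 ± 0.223 in set A (SD, n = 4) and 1.38 ± 0.306 in set B (SD, n = 3; exact permutation test, p = 0.457). Set A held 3 females and 3 neutered dogs of 4, and set B held 2 of each of 3. The phenotype label was spelled with a hyphen for 1 library of each set. Fisher's exact test gave p = 1 for each of these 3. With 4 libraries against 3 the smallest 2-sided p of the permutation test is 0.0571, and after Benjamini-Hochberg adjustment over the 5 comparisons each p was 1.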

How the data were processed

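RNA from 29 canine lymphomas was sequenced, and a table with 1 value per Ensembl gene ID and library was used. The deposited values are FPKM made by the authors. The submitters' processing notes name TopHat 1.4.1, FastQC 0.11.2, Cuffdiff and the build CanFam3.1, without options, annotation or scaling. FPKM divides by the library total, so a rise in abundant genes lowers all others. Columns were matched to samples by title, and 49 further columns, whose names match no title, were set aside. The RefSeq gene table holds no Ensembl IDs, so the 22 gene lists drawn up by symbol could not be tested, and gene positions, sequences and enrichment were not analysed.

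The scale was log2(FPKM + 1), on which differences of low genes come out too small. Set A and set B were compared by differences of means and by overlap, without a test, over genes that reached 1 FPKM in 3 or more of the 7. A library's position on a gene is its distance from the mean of set B divided by the difference between the sets. Each set was tested against the B-cell libraries with limma 3.58.1 in R 4.3.3, in 1 fit of all 29 libraries in 4 groups (set A, set B, the 2 other T-cell libraries, B-cell), with a variance trend and robust moderation, in both directions, with Benjamini-Hochberg adjustment over genes that reached 1 FPKM in 3 or more of the 29. Labels and depth were compared with exact tests. Named genes were the 2 IDs in each direction with the largest difference among those that did not overlap and averaged at least 1 FPKM over the 7. The members and lists were chosen with earlier results of these data known. Relative depth was taken from the most frequent ratio of FPKM below 0.2 between 2 libraries, which fitted 812 ordered pairs to within 0.00546 log2 units. It ran from 0.523 to 2.22 over the 29 libraries. The absolute depth is unknown, so no counting intervals are given. No 2 libraries held identical values. The model and the depth method were tested on simulated data. Python 3.11.15, numpy 2.4.6, pandas 2.3.3, scipy 1.17.1 and matplotlib 3.10.9 were used. Other pseudocounts, filters, scalings, covariates and sets of libraries were tried as alternatives.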

Additional observations from a re-analysis of the deposited data

Results flagged for a closer look

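For 3 of the 4 gene IDs given individually, every library of one set lay above and every library of the other below the mean of the 20 B-cell libraries. That difference in direction was not tested, because the IDs were chosen for their difference between the sets. The B-cell mean was 0.666 FPKM for ENSCAFG00000007663, with set A above it and set B below. It was 13.7 FPKM for ENSCAFG00000011311 and 6.86 FPKM for ENSCAFG00000006465, with set B above and set A below. The B-cell medians of these IDs were lower, at 6.13 and 0.260 FPKM. In limma against the B-cell libraries, both sets were not called together for any of the 3 IDs. The adjusted p was 0.427 for set B at ENSCAFG00000007663, 0.1625 for set B at ENSCAFG00000011311 and 0.230 for set A at ENSCAFG00000006465. Opposite departures of the sets from the B-cell tumours are therefore not shown. In 14 measures over the 4 libraries of set A, Dixon's gap singled out 0 libraries, where chance singles out about 1 in 20. Set B, with 3 libraries, was not checked in this way. The libraries of set A were chosen for likeness, which can make outliers rarer. The chance rate need not hold for them, and nothing is concluded from the 0.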

How the results depend on the processing

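Genes at least 2-fold higher in set A (829) numbered 640 to 1155 and those higher in set B (673) 509 to 848 over 5 alternatives (pseudocount 0.1, no filter, a mean of at least 5 FPKM, median-of-ratios scaling and quantile normalization). Non-overlapping genes numbered 1489 to 2040 and 1436 to 1870. Leaving out each of the 7 libraries gave 715 to 1146 and 558 to 730 for 2-fold genes and 1977 to 2686 and 1794 to 2334 for non-overlapping genes, which fewer libraries must raise. Against B-cell tumours each count stayed within 1.5 times its value in 9 alternatives, but 3 moved further when 1 library was left out. This gave 1368 to 2016 genes higher and 836 to 1302 lower in set A, and 1265 to 1895 higher and 869 to 1351 lower in set B. The lowest were without T2 for set A, with 836 lower, and without T8 for set B, with 1265 higher and 869 lower, where the set has fewer samples. The difference in age ran from 0.675 to 2.68 years and that in relative depth (-0.144) from -0.255 to 0.0308, the sign turning without T8. The position of T4 on genes chosen without it ran from 0.44 to 0.52 and from 0.30 to 0.35. With pseudocount 0.1 the differences of the named IDs were 7.55, 6.35, -7.15 and -7.35, as low values count for more. The median r of set A with set B ran from 0.807 with a mean of at least 5 FPKM to 0.928 without a filter. The alternatives for correlations and positions, and the fit without T5 and T6, were chosen after the data were examined. No paired analysis was possible because the labels link no library of one group to a library of another. As fragment counts are unknown, the counting error of differences near 0 FPKM could not be given.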
